A study of Mus musculus with 124 samples.

Results

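The zinc finger genes with symbols Zfp900 to Zfp999 were taken from 3 tables of gene expression in mice, as every symbol made of Zfp9 and 2 further digits. The rule found 63 genes among 35096 symbols: 57 of 26992 in the table of oocytes, 58 of 25239 in that of blastocysts and 33 of 24384 in that of the dorsal dentate gyrus (dDG), with 32 in all 3. The set was selected on the oocyte values of Zfp990, which was near 0 in control oocytes and higher in oocytes of mice given human chorionic gonadotropin, so the oocyte values of Zfp990 are a description and carry no test. Zfp990 was not analysed in the dDG.

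Human chorionic gonadotropin (hCG) is the hormone used to trigger ovulation. Females of the hCG group, in natural estrus and without priming by PMSG, received 7.5 IU into the peritoneum, and their metaphase II oocytes were taken 14 h later. Ctrl females in estrus received no hCG, were housed with a vasectomised male and gave oocytes the next morning, so mating and the time since ovulation differed between the groups and cannot be told apart from hCG in oocytes. Hyaluronidase was used to strip the oocytes of cumulus cells. Blastocysts came from uterine flushes at embryonic day 3.5. The dDG, a hippocampal region that goes on making granule neurons in adult life, came from offspring aged 8 weeks after tribromoethanol and perfusion. For blastocysts and dDG, hCG and Ctrl name the exposure of the mother. Each material was compared as hCG against Ctrl, with 6 and 6 oocyte, 28 and 28 blastocyst and 6 and 6 dDG libraries. The labels used here name no strain and do not say whether replicates came from separate animals, so p-values measure the spread between these libraries, which may be technical.

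Most mouse genes of this name carry a KRAB domain beside an array of C2H2 zinc fingers. The fingers bind DNA, often inside retrotransposons. The KRAB domain recruits TRIM28, a scaffold that brings the histone methyltransferase SETDB1, HP1 proteins and DNA methylation to the bound site. The genes lie in clusters of recent, near-identical copies, and clusters on mouse chromosomes 2 and 4 are known to silence retrotransposons. In the oocyte and early embryo such proteins are known for keeping methylation at imprinted regions, the role of Zfp57 and Zfp445. Of the members, Zfp932 is known to bind endogenous retroviruses, Zfp979 is also named Ssm1b, a modifier of transgene methylation that differs between mouse strains, and Zfp982 is known from mouse embryonic stem cells.

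Of the 63 members, 61 had a position in the supplied RefSeq table, all as protein-coding genes, on 12 chromosomes. Chromosome 4 held 14 of them, chromosome 17 held 13, chromosome 2 held 10, chromosome 7 held 9 and chromosome 8 held 5. The 14 on chromosome 4 formed 1 cluster, with less than 1000000 bases between neighbours, at chr4:145510759-147849126. Zfp990 (chr4:145510759-145538251) was its first gene. That span held 18 protein-coding genes in all, the others being Gm13212, Zfp600, Rex2 and Zfp534. Across the set, 8 members overlapped another protein-coding gene, and reads of near-identical copies or overlapping genes could have been split or shared by the counting.

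RefSeq promoter windows (build GRCm38.p6, 250 bases before to 50 after a start) matched 54 members with 62 windows, and 4 are printed because the oocyte results turn on these genes. Zfp979 and Zfp981 are the called members of the chromosome 4 cluster, Zfp961 is the called member of chromosome 8 and Zfp957 is a member with reads in oocytes and next to none in the other materials. Capitals mark the motifs searched on either strand. They were the CCAAT box (CCAAT), the TATA box (TATAAA), the GC box (GGGCGG), the element of the oocyte factor NOBOX (TAATTG), the core of ETS factors (CCGGAAG), the cyclic AMP element (TGACGTCA), the YY1 core by its name alone, and a joined box, ATTGGGCGG, in which a reversed CCAAT runs into a GC box. The windows lie at chr4:147642459-147642758 (minus strand) for Zfp979, chr4:146514670-146514969 (plus strand) for Zfp981, chr8:71950816-71951115 (plus strand) for Zfp961 and chr14:79247318-79247617 (minus strand) for Zfp957.
Zfp979: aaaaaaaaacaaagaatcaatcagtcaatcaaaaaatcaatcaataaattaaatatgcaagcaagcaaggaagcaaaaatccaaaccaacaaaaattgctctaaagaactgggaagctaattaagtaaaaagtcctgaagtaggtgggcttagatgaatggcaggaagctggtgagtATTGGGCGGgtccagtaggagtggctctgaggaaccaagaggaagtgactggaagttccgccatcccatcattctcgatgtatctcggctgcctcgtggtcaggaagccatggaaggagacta
Zfp981: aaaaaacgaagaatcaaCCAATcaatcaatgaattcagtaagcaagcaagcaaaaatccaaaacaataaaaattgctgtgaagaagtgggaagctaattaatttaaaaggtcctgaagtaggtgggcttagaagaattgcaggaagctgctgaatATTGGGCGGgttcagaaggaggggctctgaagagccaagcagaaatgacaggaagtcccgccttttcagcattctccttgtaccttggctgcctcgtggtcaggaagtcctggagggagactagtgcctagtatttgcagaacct
Zfp961: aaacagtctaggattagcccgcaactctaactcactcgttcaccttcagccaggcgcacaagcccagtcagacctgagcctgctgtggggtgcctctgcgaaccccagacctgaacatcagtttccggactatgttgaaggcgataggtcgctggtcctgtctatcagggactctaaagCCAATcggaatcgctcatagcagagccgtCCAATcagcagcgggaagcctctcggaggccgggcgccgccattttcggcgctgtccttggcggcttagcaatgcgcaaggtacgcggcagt
Zfp957: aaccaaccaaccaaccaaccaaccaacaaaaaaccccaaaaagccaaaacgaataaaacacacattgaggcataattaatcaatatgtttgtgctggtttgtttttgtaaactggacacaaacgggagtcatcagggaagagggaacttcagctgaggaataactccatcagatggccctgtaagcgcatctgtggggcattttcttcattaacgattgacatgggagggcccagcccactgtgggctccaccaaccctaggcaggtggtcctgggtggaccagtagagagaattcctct

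The Zfp979 and Zfp981 windows were 74.3% identical, and both held the joined ATTGGGCGG, within which their CCAAT and GC box letters overlap. That joined motif, added after these sequences had been read, was found in 84 of 32851 windows of all genes (0.3%) and in 9 of the 62 member windows (14.5%). Of the 9 genes, 7 were among the 10 members of the chromosome 4 cluster with a window: Zfp979, Zfp980, Zfp981, Zfp982, Zfp984, Zfp985 and Zfp988. The other two, Zfp947 and Zfp994, lie on chromosome 17. Zfp961 held CCAAT 2 times, and Zfp957 held none of the motifs. CCAAT was found in 77.4% of member windows, against 37.4% of all windows, and the ETS core in 29.0%, against 8.9%. The TATA box was found in 0 of 62 member windows, against 13.6% of all windows. The NOBOX element was found in 1.6% of member windows and 8.0% of all windows. The GC box was found in 33.9% of member windows, against 35.7%, and the cyclic AMP element in 1.6%, against 1.8%. The YY1 core was found in none of the 62, against 0.6%.

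Copies within a cluster share promoter sequence, so these windows are not independent of each other. On chromosome 2 the median identity over 45 pairs of windows was 74.8%, with Zfp966 and Zfp967 identical (100%) and Zfp968 and Zfp973 at 99.7%. In the chromosome 4 cluster it was 51.3% over 63 pairs, with 10 pairs at 80% or more. Its most alike pair was Zfp980 and Zfp979 at 89.8%. Pairs on different chromosomes had a median of 50.1% and none above 69.6%.

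In oocytes, Zfp990 had 72, 66, 47, 51, 47 and 70 reads in the hCG libraries, against 1, 1, 1, 1, 1 and 3 reads in the Ctrl libraries. As CPM, counts scaled to a library total of 1000000, that was 12.3 ± 2.51 in hCG oocytes and 0.318 ± 0.155 in Ctrl oocytes (SD, n = 6 each). Every hCG library lay above every Ctrl library, as in 1.12% of all tested genes, and nothing is read from this since the gene was chosen for it. Over the group, 353 reads in hCG stood against 8 in Ctrl, a 40.8-fold higher share of reads in hCG. The fitted log2 fold change was 5.21, hCG over Ctrl. The next highest among the tested members was 1.88 (Zfp981) and the lowest was -1.28 (Zfp961). CPM are shares of a library and not amounts per oocyte.

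**Figure D1:**
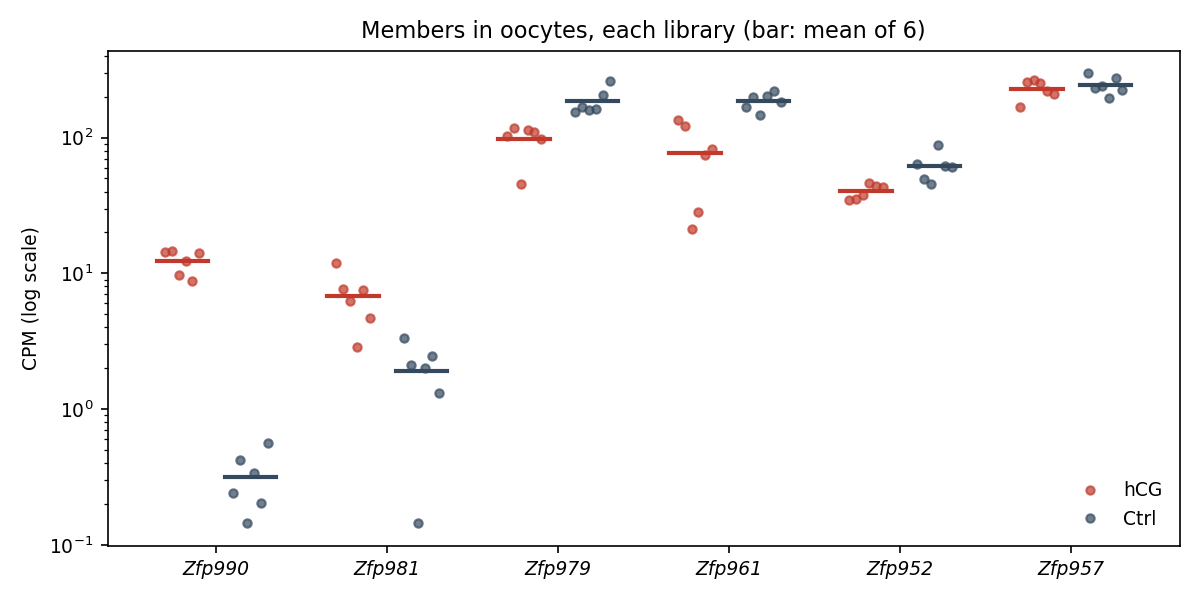
CPM (log scale) of 6 members in each oocyte library, with hCG in red to the left and Ctrl in dark blue to the right of each gene, and bars at the mean of 6 libraries. The groups do not overlap for Zfp990, Zfp979 and Zfp961, and they lie at the same height for Zfp957.

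Apart from Zfp990, 35 of the members in the oocyte table passed the low-count filter and were tested with edgeR's quasi-likelihood test, with Benjamini-Hochberg adjustment over all 9551 genes and a threshold of 0.05. Of these, 1 rose in hCG oocytes (Zfp981), where 1.33% of all tested genes rose, and 3 fell (Zfp979, Zfp961 and Zfp952), where 2.66% of all genes fell. Their median log2 fold change was -0.01, beside 0.01 over all genes. At an unadjusted p under 0.05 there were 9 of the 35, beside 18.9% of all genes. Among 163 tested genes with any other Zfp number, 2 rose and 2 fell, with a median of 0.09. The called members were thus 1 and 3 single genes on chromosomes 4, 8 and 17.

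Of the 35 tested members other than Zfp990, Zfp979 had the smallest p. It had 102, 118, 45.3, 113, 111 and 97.2 CPM in the hCG libraries, against 153, 168, 159, 163, 205 and 263 CPM in the Ctrl libraries. All hCG libraries were below all Ctrl libraries, and the hCG library at 45.3 stood apart from its group. It fell to 97.8 ± 26.8 CPM in hCG oocytes, against 185 ± 42.3 CPM in Ctrl oocytes (SD, n = 6 each). The log2 fold change was -0.95 ± 0.21 (standard error, as for all fold changes below), with an adjusted p of 0.0104 by edgeR. The call was kept under all 17 alternatives run on it, at adjusted p-values of 0.000301 to 0.031.

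Zfp961, on chromosome 8, had 136, 121, 21.3, 28.3, 74.8 and 82.2 CPM in the hCG libraries, against 167, 200, 146, 201, 220 and 184 CPM in the Ctrl libraries. The hCG libraries spread widely, with libraries 3 and 4 lowest, and all lay below every Ctrl library. The mean was 77.2 ± 46.6 CPM in hCG and 186 ± 26.7 CPM in Ctrl oocytes, a log2 fold change of -1.28 ± 0.34 with an adjusted p of 0.0445. It stayed past the threshold under 6 of 17 alternatives, with adjusted p-values up to 0.203. Zfp979 and Zfp961 were the members tested whose hCG libraries all lay below Ctrl, 2 of 35, where 1.91% of all tested genes did so.

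Zfp952, on chromosome 17, fell to 40.1 ± 4.90 CPM in hCG oocytes, against 61.6 ± 15.2 CPM in Ctrl oocytes. Its log2 fold change was -0.63 ± 0.17 with an adjusted p of 0.0452, and 1 hCG library overlapped the Ctrl range of 45.3 to 88.8 CPM. It passed under 4 of 17 alternatives, with adjusted p-values up to 0.0968.

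Zfp981 was low in both groups. It had 60, 35, 30, 12, 40 and 23 reads in the hCG libraries, against 14, 5, 1, 6, 12 and 7 reads in the Ctrl libraries. As CPM it averaged 6.81 ± 3.09 in hCG oocytes and 1.90 ± 1.09 in Ctrl oocytes, with 1 hCG library inside the Ctrl range. Its log2 fold change was 1.88 ± 0.50 with an adjusted p of 0.0391, and it passed under 7 of 17 alternatives, with adjusted p-values up to 0.11. Its span overlaps that of Zfp993, which had 7 reads over the 6 hCG libraries and 10 over the 6 Ctrl libraries.

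The other members of the chromosome 4 cluster had values in both directions. Without Zfp990, 9 of the 13 were tested, with 1 higher (Zfp981) and 1 lower (Zfp979), beside 1.33% and 2.66% of all genes, and a median log2 fold change of -0.20. At an unadjusted p under 0.05 there were 5 of the 9, beside 18.9% of all genes: Zfp981 higher, and Zfp979, Zfp978, Zfp980 and Zfp992 lower. Zfp978, Zfp980 and Zfp992 had the same direction as Zfp979 but did not pass after adjustment. Zfp978 had 7.01 CPM in hCG and 14.7 CPM in Ctrl oocytes (adjusted p 0.128). Zfp980 had 14.0 and 21.8 CPM (adjusted p 0.139), and Zfp992 had 4.64 and 7.83 CPM (adjusted p 0.193). Zfp982 had 32.5 ± 13.3 CPM in hCG and 21.3 ± 8.60 CPM in Ctrl oocytes (adjusted p 0.309), and Zfp985 had 7.98 and 5.57 CPM (adjusted p 0.419). Zfp984 had 12.6 CPM in hCG and 14.3 CPM in Ctrl oocytes, and Zfp933 had 6.74 and 4.30 CPM, with adjusted p-values of 0.742 and 0.567. Zfp987, Zfp988, Zfp991 and Zfp993 were under the filter, at 5, 39, 11 and 7 reads over the hCG group, against 11, 11, 21 and 10 reads over the Ctrl group. Of the genes in the span without a member's symbol, Gm13212, the nearest to Zfp990, had 5.20 CPM in hCG and 4.97 CPM in Ctrl oocytes (adjusted p 0.978), and Zfp534 had 10.4 and 14.0 CPM (adjusted p 0.430).

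**Figure D2:**
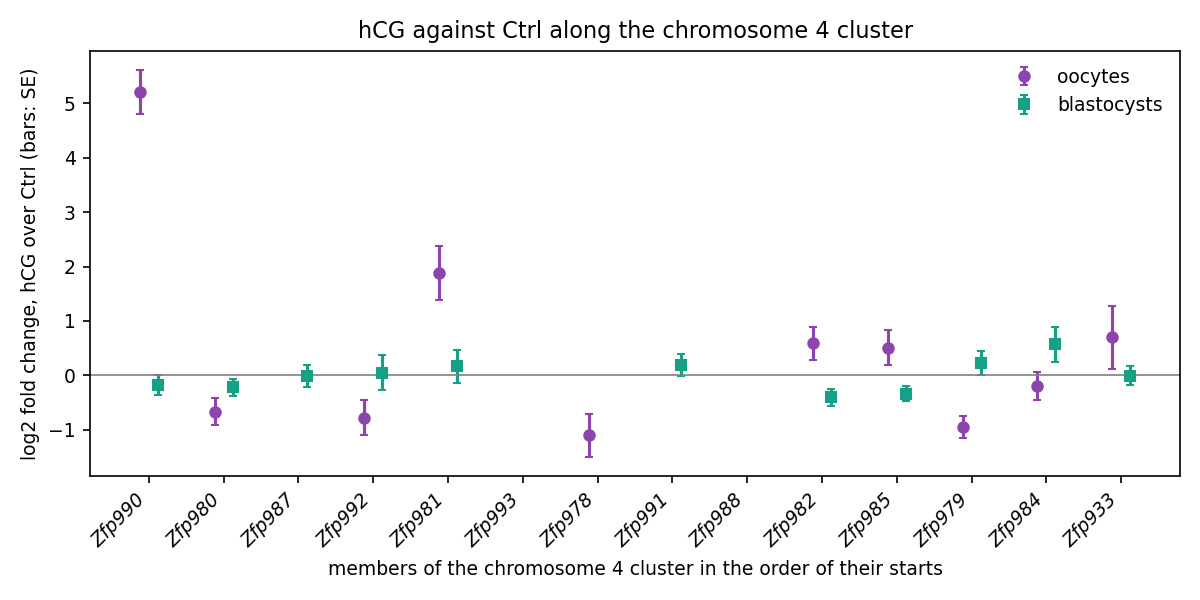
The log2 fold change of hCG over Ctrl (bars, standard error) for the 14 members of the chromosome 4 cluster in the order of their starts, in oocytes (circles) and blastocysts (squares). Genes without a symbol were not tested in that material. The bar of Zfp990 in oocytes carries no test. Zfp990 in oocytes stands at 5.21, the other oocyte values run from -1.10 to 1.88, and the blastocyst values run from -0.40 to 0.57.

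Members with alike promoter windows had oocyte values in both directions. Zfp979 and Zfp980, at 89.8% identity, had log2 fold changes of -0.95 and -0.66, while Zfp982 had 0.59 (adjusted p 0.309), with 3 windows at 84.9%, 47.2% and 47.1% identity to that of Zfp979, and Zfp981, at 74.3%, had 1.88. These are descriptions of few related sequences. No RefSeq promoter window was matched to Zfp990.

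The remaining tested members in oocytes held their levels within the spread of the libraries or did not pass. Zfp957 on chromosome 14 had 228 ± 36.5 CPM in hCG and 244 ± 37.0 CPM in Ctrl oocytes (adjusted p 0.745). Zfp942 had 64.3 ± 7.86 and 60.2 ± 7.22 CPM (adjusted p 0.821). Zfp930 was the nearest outside the threshold, at 34.0 ± 3.43 CPM in hCG and 19.3 ± 6.56 CPM in Ctrl oocytes, with a log2 fold change of 0.78 ± 0.22 and an adjusted p of 0.0530 (0.0123 with DESeq2). All 6 of its hCG libraries were above the Ctrl median. Of the 21 members under the filter, 3 had no read in any of the 12 libraries (Zfp941, Zfp986 and Zfp995). That allows up to 0.104 CPM over the hCG group and 0.113 CPM over the Ctrl group (3 counts of the total). These limits hold only if the counting could assign reads to these genes, which was not tested.

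Summed over the 57 members in the oocyte table, the hCG libraries held 786 to 1065 CPM (median 1024) and the Ctrl libraries 1014 to 1384 CPM (median 1153), and the groups overlapped. Oocyte markers were present in all libraries, at 9068 to 11161 CPM summed over 10 genes in hCG and 9971 to 13194 CPM in Ctrl. Of these 10 markers 2 fell in hCG oocytes, beside the fall of Zfp979, Zfp961 and Zfp952: Zp3, of the zona pellucida, to 66.5 ± 33.0 CPM, against 150 ± 60.8 CPM in Ctrl (adjusted p 0.0199), and Mos, the kinase of metaphase II arrest, to 824 ± 102 CPM, against 1263 ± 149 CPM in Ctrl (adjusted p 0.0035). None rose, where 1.33% of all tested genes rose and 2.66% fell. An unadjusted p under 0.05 by edgeR was found for 7 of the 10, beside 18.9% of all genes. The median log2 fold change of the markers was -0.41, beside 0.01 over all genes. Their part in the results on members was not tested. The 11 cumulus and granulosa markers summed to 16.8 to 24.6 CPM in hCG and 13.7 to 22.3 CPM in Ctrl, with 5 and 4 of the 11 at 0. Libraries held 4169163 to 5335876 counts in hCG and 2375645 to 6910882 counts in Ctrl, with Ctrl libraries 2 and 4 the shallowest. Without them 1 member stayed lower in hCG (Zfp979) and none higher apart from Zfp990.

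**Figure D3:**
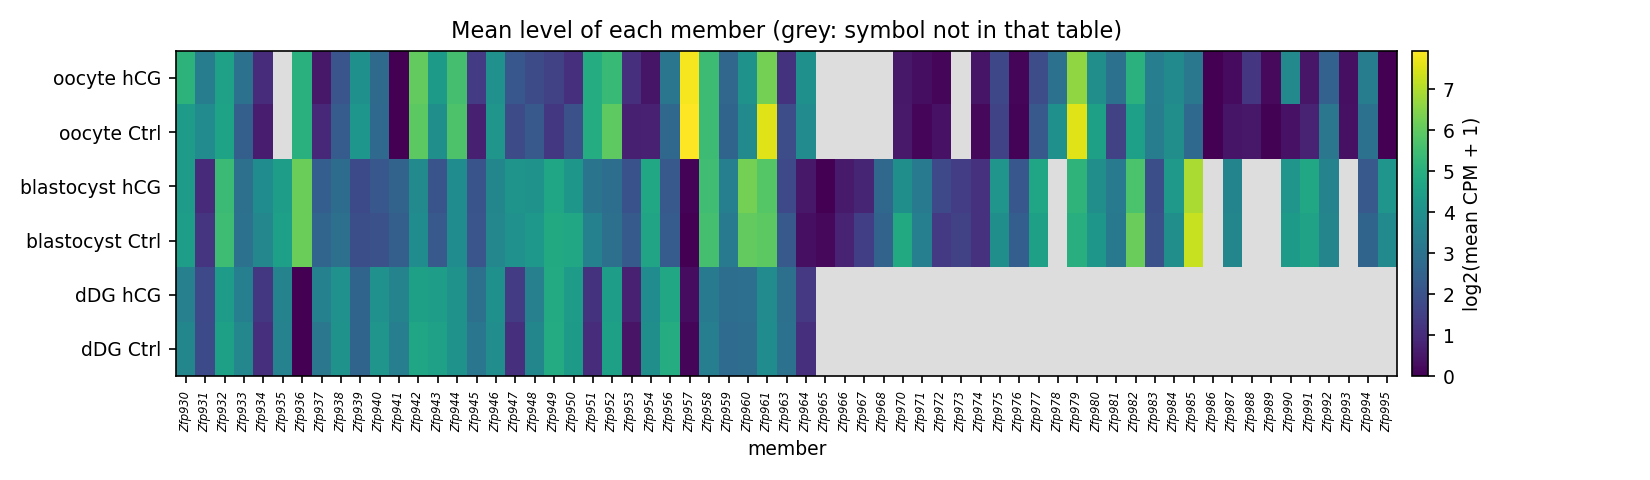
Mean level of each member as log2 of mean CPM plus 1, for hCG and Ctrl in oocytes, blastocysts and dDG from top to bottom. Grey cells are symbols that the table of that material does not list, and colours compare 1 gene between groups, since CPM is not scaled to gene length. In oocytes Zfp990 is lighter in hCG than in Ctrl, and Zfp957 is light in oocytes and dark in blastocysts and dDG.

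In blastocysts Zfp990 did not pass the test between the groups. Of the 58 members in that table, 29 averaged at least 10 CPM in hCG blastocysts and 30 in Ctrl blastocysts, and 1 had fewer than 10 reads. In oocytes 20 of 57 members averaged at least 10 CPM in hCG and 21 in Ctrl. The tables were normalised separately, and the oocyte table holds whole counts where the blastocyst table holds estimated counts. Reads of near-identical copies may have been assigned differently in them. Levels in different materials are therefore set side by side without a test. Among the 52 members in both tables, Zfp957 and Zfp964 averaged at least 10 CPM in Ctrl oocytes and under 1 CPM in Ctrl blastocysts. Zfp957 was at 244 CPM in Ctrl oocytes and 0.0072 CPM in Ctrl blastocysts. Another 7 did the reverse: Zfp934, Zfp954, Zfp970, Zfp987, Zfp990, Zfp991 and Zfp995. Zfp990 was at 0.318 CPM in Ctrl oocytes and 18.9 CPM in Ctrl blastocysts.

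Zfp990 ran from 4.43 to 29.2 CPM (median 16.6) in hCG blastocysts and from 3.30 to 37.3 CPM (median 17.6) in Ctrl blastocysts. The ranges overlapped almost wholly. Means were 16.8 ± 7.07 CPM in hCG and 18.9 ± 8.43 CPM in Ctrl (SD, n = 28 each), a log2 fold change of -0.18 ± 0.18 with an adjusted p of 0.534 by limma.

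By limma over 10848 genes, 51 of the 58 members were tested and none rose in hCG blastocysts, where 8.68% of all tested genes rose. The count at an unadjusted p under 0.05 was 7 in either direction, beside 30.7% of all genes, and edgeR on estimated reads also called 0 higher. There were 2 lower, Zfp950 and Zfp970, where 7.57% of all genes fell. Log2 fold changes of the members ran from -0.95 to 0.57, with a median of -0.02, beside 0.02 over all genes. Of 226 tested genes with other Zfp numbers, 9 rose and 5 fell.

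Zfp950, on chromosome 19, ran from 10.2 to 35.4 CPM (median 16.2) in hCG blastocysts and from 13 to 51.0 CPM (median 25.1) in Ctrl blastocysts. Of the 28 hCG libraries 25 were under the median of Ctrl, and the ranges overlapped. It fell to 17.5 ± 5.59 CPM in hCG, against 26.2 ± 8.45 CPM in Ctrl, a log2 fold change of -0.58 ± 0.13 with an adjusted p of 0.00178. Its span overlaps that of Grk5, a receptor kinase gene, and of Gm4238. With the number of genes detected in a library as a covariate the call was lost. That number ran from 12712 to 14079 in hCG and from 10382 to 13836 in Ctrl blastocyst libraries, so the covariate was not independent of group. Its part in the values of members lower in hCG blastocysts was not tested.

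Zfp970, in the chromosome 2 cluster, ran from 0.508 to 55.8 CPM (median 13.2) in hCG blastocysts and from 1.70 to 82.7 CPM (median 21.5) in Ctrl blastocysts. Libraries of both groups came near 0, and 24 of the 28 hCG libraries were under the median of Ctrl. Means were 14.4 ± 11.6 CPM in hCG and 27.5 ± 19.5 CPM in Ctrl, a log2 fold change of -0.95 ± 0.32 with an adjusted p of 0.0365, lost under 4 of 8 alternatives. Its promoter window was 96.1% identical to those of Zfp966 and Zfp967, which were too low to be tested, at 0.484 and 0.779 CPM in hCG and 0.739 and 1.80 CPM in Ctrl. Reads of these copies may have been split by the counting.

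**Figure D4:**
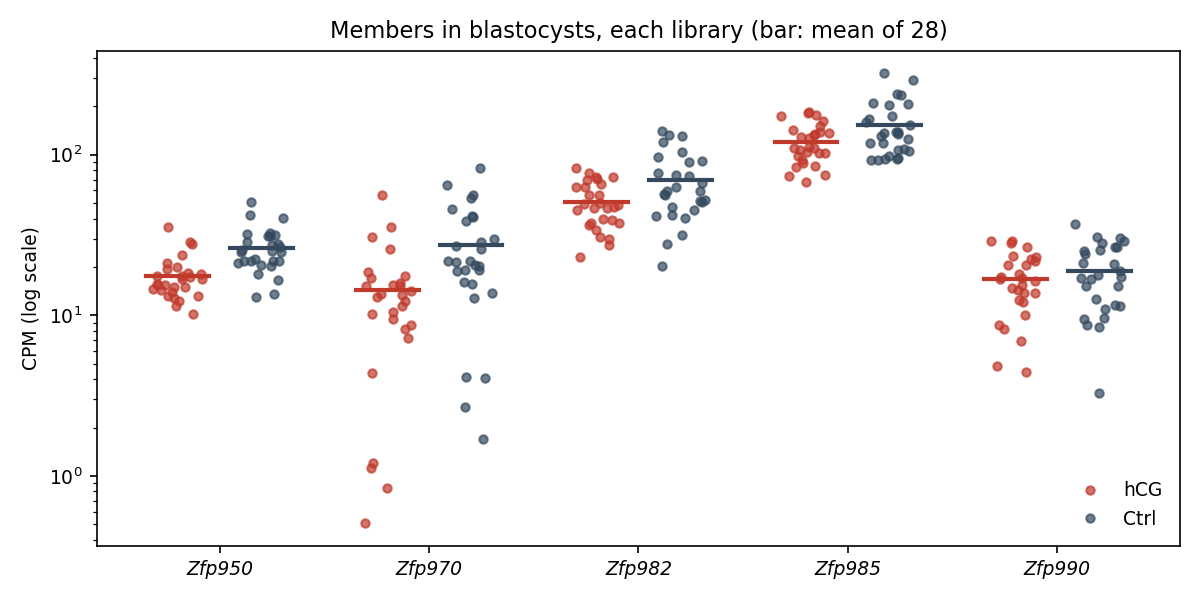
CPM (log scale) of 5 members in each of 28 hCG (red, left) and 28 Ctrl (dark blue, right) blastocyst libraries, with bars at the mean. The groups overlap for every gene, with the hCG bar lower for Zfp950, Zfp970, Zfp982 and Zfp985 and nearly level for Zfp990. Of these genes, Zfp950 and Zfp970 were called.

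In the chromosome 4 cluster 11 members were tested in blastocysts and none was called, where 8.68% of all tested genes rose and 7.57% fell. At an unadjusted p under 0.05 by limma there were 2 of the 11, beside 30.7% of all genes. These were Zfp982, at 50.7 ± 16.4 CPM in hCG and 69.4 ± 32.8 CPM in Ctrl (log2 fold change -0.40 ± 0.16, adjusted p 0.0716), and Zfp985, at 121 ± 34.1 and 153 ± 61.7 CPM (log2 fold change -0.33 ± 0.13, adjusted p 0.0776). Both passed with edgeR on estimated reads, at adjusted p-values of 0.0277 and 0.0425. With the genes detected in a library as a covariate, Zfp982 stood at -0.21 (adjusted p 0.478) and Zfp985 at -0.02 (adjusted p 0.94), and on the deposited values without rescaling they stood at 0.02 (adjusted p 0.916) and 0.10 (adjusted p 0.58). Zfp979, lower in hCG oocytes, had 35.1 ± 15.4 CPM in hCG and 31.1 ± 16.9 CPM in Ctrl blastocysts (adjusted p 0.500), and Zfp981 had 8.59 and 8.24 CPM (adjusted p 0.753). Zfp961 had 56.6 ± 12.7 and 59.7 ± 15.9 CPM (adjusted p 0.540). Whether oocytes and blastocysts differed in these fold changes was not tested.

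Of the other members, Zfp960 on chromosome 17 had 76.3 ± 16.3 CPM in hCG and 64.0 ± 27.1 CPM in Ctrl blastocysts (log2 fold change 0.30 ± 0.12, adjusted p 0.0878). Zfp936 had 69.6 ± 22.5 and 70.7 ± 23.1 CPM (adjusted p 0.820). The library spread was wide: the median coefficient of variation over 51 tested members was 49.0% in hCG and 57.8% in Ctrl blastocysts. In oocytes it was 28.2% and 33.9%, over a different set of 36 tested members. Trophectoderm markers summed to 2334 to 8634 CPM in hCG and 1807 to 12057 CPM in Ctrl libraries, and inner cell mass markers to 182 to 803 CPM and 142 to 757 CPM. The sums overlapped, but single markers were called. Of 10 trophectoderm markers tested 0 rose and 3 fell, and of 7 inner cell mass markers 1 rose and 0 fell. Of 6 primitive endoderm markers tested 0 rose and 1 fell, and of 5 uterine, stromal and blood markers 1 rose and 0 fell. Of all tested genes 8.68% rose and 7.57% fell. The median log2 fold changes of these lists were -0.17, -0.09, -0.5 and 0.35, beside 0.02 over all genes. In libraries of whole embryos, fewer cells of a type and less RNA per cell cannot be told apart, and their part in the Zfp950 and Zfp970 results was not tested.

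In the dDG no member was called. Of the 33 symbols in the table, 30 were tested by edgeR over 13853 genes, with 0 higher and 0 lower, where 4.66% and 3.2% of all genes rose and fell. At an unadjusted p under 0.05 there were 3, beside 24% of all genes, and DESeq2 also called 0. The median log2 fold change was -0.03, beside 0.0 over all genes, and the extremes were -0.27 and 0.53. The median coefficient of variation over the 30 tested members was 12.4% in hCG and 12.5% in Ctrl, the smallest of the 3 materials. The members tested, their levels and the depth differed between materials, so these medians are not like for like.

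The 3 were Zfp937, Zfp956 and Zfp932. Zfp937 had 8.44, 8.52, 9.77, 12.4, 12.3 and 9.30 CPM in hCG dDG, against 6.29, 7.74, 7.29, 10.5, 8.17 and 7.30 CPM in Ctrl dDG. The groups overlapped through 1 Ctrl library. The log2 fold change was 0.38 ± 0.14 with an adjusted p of 0.109. Zfp956 had 25.9 ± 2.52 CPM in hCG and 29.1 ± 0.887 CPM in Ctrl dDG (adjusted p 0.189). Zfp932 had 19.7 ± 0.909 and 22 ± 1.68 CPM (adjusted p 0.192). Zfp949, Zfp942, Zfp943 and Zfp952 had adjusted p-values of 0.830, 0.308, 0.636 and 0.671. Zfp957 had 19 reads over the hCG libraries and 7 over the Ctrl libraries. Zfp936 had no read in any dDG library. That allows up to 0.03 CPM in each group (3 counts of the total), but only if the counting could assign its reads to it. Whether it could was not tested.

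The dDG table used older names for 22 more members, which the rule does not match. Of these, 13 were tested, 0 were called and 2 had an unadjusted p under 0.05, with a median log2 fold change of -0.06. Zfp970, there Gm14420, had 15.6, 22.8, 1.06, 11.5, 22.4 and 13.1 CPM in hCG dDG, against 44.4, 27.4, 34.9, 7.33, 11.9 and 23.1 CPM in Ctrl dDG. The groups overlapped, and the means of 14.4 ± 8.06 CPM in hCG and 24.9 ± 13.9 CPM in Ctrl gave a log2 fold change of -0.77 ± 0.59 with an adjusted p of 0.463. The 2 with an unadjusted p under 0.05, Gm8898 (Zfp966) and Gm14431 (Zfp967), had the same value in each of the 12 libraries and so count as 1 measurement: 3.43 ± 0.482 CPM in hCG and 4.61 ± 1.07 CPM in Ctrl (adjusted p 0.161). Most chromosome 4 cluster genes were near 0 under their older names. Zfp979 had 3 reads over the hCG libraries and 11 over the Ctrl libraries, and Zfp985 had 0 and 1.

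The dentate granule neuron markers summed to 1183 to 1474 CPM in hCG and 826 to 1369 CPM in Ctrl dDG. In hCG library 6 Ttr, a choroid plexus gene, reached 8945 CPM, against 4.16 to 73.1 CPM in the Ctrl libraries. Left out of the fit, that library left the member counts at 0 higher and 0 lower.

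The proteins that KRAB zinc fingers work through were described from a list for the TRIM28 machinery. In oocytes 22 of the 23 genes listed were tested, 0 rose and 1 fell, beside 1.33% and 2.66% of all genes: Dnmt1, the maintenance DNA methyltransferase, had 393 ± 101 CPM in hCG and 675 ± 223 CPM in Ctrl oocytes (log2 fold change -0.78 ± 0.19, adjusted p 0.0211). Trim28 itself had 303 ± 45.2 CPM in hCG and 248 ± 118 CPM in Ctrl oocytes (adjusted p 0.528). In blastocysts 22 were tested, 1 rose and 6 fell, beside 8.68% and 7.57% of all genes, with a median log2 fold change of -0.23, beside 0.02 over all genes. Uhrf1, which guides DNMT1 to hemimethylated DNA, stood at -0.52 on the log2 scale (adjusted p 0.00463), Tasor, of the HUSH silencing complex, -0.42 (adjusted p 0.0101) and the methyltransferase Setdb1 -0.37 (adjusted p 0.0209). The gene that rose was Pphln1, another HUSH subunit, at 0.25 ± 0.08 (adjusted p 0.0284). In the dDG 22 were tested, 4 rose and 0 fell, beside 4.66% and 3.2% of all genes: Hdac2, a histone deacetylase (0.25, adjusted p 0.0041), Fam208a, the older name of Tasor (0.30, adjusted p 0.0112), Trim28 (0.18, adjusted p 0.0392) and the HP1 gene Cbx5 (0.21, adjusted p 0.0433). Alternative fits were examined for members only. Calls from this list and the next were thus not examined without the dDG library high in Ttr, or with detected genes as a covariate in blastocysts.

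Of a list of zinc finger genes with a described function or target, KRAB genes but for Zfp42, 6 were tested in oocytes, 10 in blastocysts and 7 in the dDG. None was called in oocytes, where Zfp57, the keeper of imprints, had 569 ± 94.5 CPM in hCG and 662 ± 46.5 CPM in Ctrl oocytes. In blastocysts 1 rose, beside 8.68% of all genes: Zfp809, which silences proviruses primed with proline tRNA, had 37.2 ± 8.89 CPM in hCG and 28.4 ± 9.13 CPM in Ctrl blastocysts (log2 fold change 0.37 ± 0.11, adjusted p 0.0192). None was called in the dDG. Zfp932, a member that is also on that list, was not called in any of the 3 materials.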

How the data were processed

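RNA libraries of oocytes, blastocysts and dDG were analysed. The 44 bisulfite samples were not analysed here. The deposited oocyte table holds counts per gene. The deposited dDG table holds expected counts per transcript, summed by symbol and rounded. The deposited blastocyst table holds a signal: estimated counts times a factor per library whose basis is not given in the sources used here. Each blastocyst library had a step, 39.29 to 244.49, of which 89.0% to 93.35% of its values were a whole multiple within 0.005. Division by that step gave estimated reads for the filter and depth, 3043230 to 10859383 per library. The dDG libraries held 14941550 to 17799935 expected counts. Trim Galore 0.6.4, STAR 2.7.6a, HTSeq 0.12.4 and the builds mm10 and GRCm38 are named in the submitters' processing notes, without the table each made. Names turned into dates (23 in oocytes, 25 in dDG) were left out.

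For oocytes and dDG the test was the robust quasi-likelihood test of edgeR 4.0.16, with TMM, in R 4.3.3, after filterByExpr (minimum count 10, total 15). Standard errors from edgeR are the size of the log2 fold change divided by the square root of the F statistic. Blastocysts were tested with limma 3.58.1 on log2(TMM-scaled CPM + 1) with trend and robust moderation, so that fold changes of low genes are understated. Tests are two-sided, with Benjamini-Hochberg adjustment of p over all genes of a table. Each fit was also run on simulated counts that had a common spread for all genes and no factor per library. These settings differ from the data, so nothing here rests on that run. Alternatives were RLE scaling, DESeq2 1.42.0, other filters and pseudocounts, unscaled values, a covariate, a replicate block and left-out libraries. The members and lists were chosen with earlier results of these data known. Members were named if called, if in the cluster of Zfp990 with at least 10 counts, or if among the 5 with the highest mean CPM of a table. Zfp930, Zfp937, Zfp932 and other members outside that rule, and the joined promoter motif, were chosen after their values were seen. Likeness of proteins was not used here. CPM is not scaled to length, so levels are not compared between genes.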

Additional observations from a re-analysis of the deposited data

Results flagged for a closer look

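Of 48 groups of 6 libraries examined for named members, 3 held a library far from the others by Dixon's criterion, where chance gives about 1 in 20. Zfp979 had 45.3 CPM in hCG oocyte library 3, with the nearest hCG library at 97.2 CPM. Without that library its log2 fold change was -0.81, with an adjusted p of 0.0107 by edgeR. Zfp992 had 11.9 CPM in Ctrl oocyte library 5, with the nearest Ctrl library at 7.70 CPM. Zfp933 had 20.7 CPM in hCG dDG library 2, with the nearest hCG library at 8.37 CPM.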

How the results depend on the processing

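In oocytes, besides Zfp990, 1 member was higher and 3 were lower in hCG. Members higher numbered 2 with DESeq2 (Zfp981 and Zfp930), 0 with a replicate block and 0 without Ctrl libraries 2 and 4. Members lower numbered 1 without the low-count filter and 1 without Ctrl libraries 2 and 4 (Zfp979 in both), and 2 with the replicate block (Zfp961 and Zfp979). Leaving out 1 oocyte library at a time gave 0 to 1 higher and 1 to 2 lower. In blastocysts, 0 were higher and 2 lower. Members higher numbered 10 on the unscaled deposited values, where the median of all genes moved to 0.49 in log2 from 0.02, and 1 (Zfp977) with detected genes per library as a covariate. Members lower numbered 1 without the low-value filter (Zfp950), 4 with edgeR on estimated reads (Zfp950, Zfp970, Zfp982 and Zfp985), 0 on unscaled values, 0 with that covariate, and 1 (Zfp950) without the 5 hCG libraries that hold both Xist and Y-linked RNA. In the dDG, leaving out 1 library at a time gave 0 to 1 higher and 0 lower: Zfp941 without Ctrl library 1 (adjusted p 0.0371) and Zfp937 without Ctrl library 4 (adjusted p 0.0468). The causes were not tested.

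No named member changed the direction of a call. The labels do not pair hCG and Ctrl libraries by replicate number. After the group mean of each gene was subtracted, same-numbered hCG and Ctrl libraries correlated at -0.16 to 0.17 in oocytes. The ranges were -0.17 to 0.15 in blastocysts and -0.15 to 0.18 in dDG. Differently numbered libraries were not correlated for comparison, so these values cannot decide whether libraries were paired. The block changed no blastocyst or dDG count. Depth limits the members under the filter, 21 in oocytes, and reads of near-identical copies cannot be assigned with certainty.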

Other observations

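Zfp930 starts 24769 bases past the end of Lzts1 on chromosome 8. Lzts1, a leucine zipper gene, had 21.7 ± 6.12 CPM in hCG oocytes and 382 ± 124 CPM in Ctrl oocytes (SD, n = 6 each), while Zfp930 had 34.0 ± 3.43 and 19.3 ± 6.56 CPM. In blastocysts Lzts1 had 15.9 ± 7.68 CPM in hCG and 13.8 ± 8.36 CPM in Ctrl libraries. The pair was chosen after its values were seen.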
